A study of Arabidopsis thaliana with 6 samples.

Results

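The 4 arrays of norflurazon-treated Arabidopsis thaliana seedlings, out of 6 arrays in all, were compared by replicate number: replicate 1 against replicate 2, within the gun1 gun5 double mutant and within the wild type. The arrays were chosen by their labels, with 2 arrays on each side. The contrast itself was taken up because earlier results of these data had shown a wide gap between the replicate numbers, so its values and counts are given as a description. No p-value of a gene is printed from it. Counts of calls from a limma fit on it appear below, and nothing is read from them.

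The mutant group was a gun1,gun5 double mutant line grown with 5 µM norflurazon, the treated wild type group was Col-0 with the same 5 µM norflurazon, and the control group was Col-0 without the herbicide. Each group had 2 arrays, numbered 1 and 2. All seedlings were whole young plants with open cotyledons, hypocotyl and primary root and no true leaves, grown for 3 days in darkness and then 3 days in continuous white light at 23 °C in sealed dishes with 1.5% (w/v) sucrose. What a replicate number marks is not in the labels, and nothing there says that 2 samples of a group were grown separately. A p-value here therefore measures the spread between samples that may differ only technically. No comparison with untreated mutant seedlings was made here.

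Norflurazon blocks carotenoid synthesis, so that light destroys the developing chloroplasts, and gun (genomes uncoupled) mutants keep nuclear photosynthesis genes expressed when plastids are damaged. Heat shock proteins are chaperones that hold or refold unfolded proteins. In plants, heat shock factors switch on small heat shock proteins, HSP70 and its J-domain partners within minutes of heat, and other stresses that unfold proteins can do the same. Small heat shock proteins are nearly silent in vegetative tissue that has not been stressed, which makes them a sensitive readout of such a programme.

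Values are array intensity signals as the authors deposited them, or log2(signal + 16), on which a difference of 1 is 2-fold for a bright probe set and understates the change of a dim one. Tests used the 13648 probe sets with a mean log2 signal at or above the 40th percentile. That mean was over all arrays, so a probe set bright only on the arrays that make a gap could pass. AT1G71000 did so, with signals of 12.3 or less off the replicate 1 norflurazon arrays, where the filter lay at 28.2. Counts among tested probe sets, those of heat shock genes included, can hold such members. Since whole seedlings were sampled, a lower signal cannot tell fewer cells of a type from less RNA per cell.

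On norflurazon, most heat shock genes were higher on both replicate 1 arrays than on the replicate 2 arrays. Of the 21 heat shock probe sets, 19 passed the intensity filter. The summed signal of these 19 on replicates 1 and 2 was 21401 and 4656 in the mutant, 27450 and 2958 in wild type seedlings on norflurazon, and 2010 and 2018 in the control. The mutant replicate 2 array thus lay above the controls, the wild type replicate 2 array lay nearer to them, and the 2 control arrays were alike. Of the 19, 17 had both replicate 1 norflurazon arrays above the other 4 arrays, where 9.09% of all tested probe sets had this order. The heat shock genes were taken up because of this contrast, so nothing is read from the 17.

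The small heat shock proteins, which bind unfolded proteins before HSP70 takes them over, stood furthest apart. The list named 18 loci, of which 10 had a named probe set and 9 were tested. The median difference of replicate 1 minus replicate 2 over these 9 was 3.22 in the mutant, 5.04 in the wild type on norflurazon and 0.02 in the control. Of the 9, 8 were at least 2-fold higher on replicate 1 in both genotypes, against 0.659% of all tested probe sets. The contrast chose the heat shock genes, so nothing is read from that count.

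AT1G53540, a cytosolic class I small heat shock protein, had signals on replicates 1 and 2 of 3036 and 216 in gun1 gun5, 2739 and 18.6 in the wild type on norflurazon, and 14.7 and 14 in the control. The wild type replicate 2 array was near the controls, and the mutant replicate 2 array lay between them and the replicate 1 arrays. The difference between the replicates was 3.72 in the mutant, 6.32 in the wild type and 0.03 in the control. AT2G29500, another class I protein, had signals on replicates 1 and 2 of 2090 and 178 in gun1 gun5, 2019 and 32.1 in the wild type on norflurazon, and 34.1 and 28.6 in the control. Its wild type replicate 2 array was again near the controls, with the mutant replicate 2 array between them and the replicate 1 arrays.

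Small heat shock proteins of the organelles showed the same broad pattern. ATHSP22.0 (AT4G10250), which resides in the endoplasmic reticulum, had signals on replicates 1 and 2 of 2505 and 132 in gun1 gun5, 2169 and 31.4 in the wild type on norflurazon, and 30.8 and 31.6 in the control. AT1G52560, a mitochondrial protein, had, on replicates 1 and 2, 1539 and 61.1 in gun1 gun5, 2133 and 14.1 in the wild type on norflurazon, and 4.1 and 12.3 in the control. Both genes were at control level on the wild type replicate 2 array, and AT1G52560 was dim there. AT5G37670, a peroxisomal protein, had, on replicates 1 and 2, 860.3 and 78.1 in gun1 gun5, 1765 and 38.1 in the wild type on norflurazon, and 22.2 and 22.4 in the control. AT1G54050, of the class III proteins, had, on replicates 1 and 2, 2091 and 274 in gun1 gun5, 1853 and 62.9 in the wild type on norflurazon, and 68 and 54.3 in the control. On replicate 1 the brighter genotype was the wild type for AT5G37670 and AT1G52560 and the mutant for the other 4 genes described so far.

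The remaining members of the list differed less. AT5G51440, a second mitochondrial protein, had signals on replicates 1 and 2 of 703 and 286 in gun1 gun5, 1661 and 256 in the wild type on norflurazon, and 34.6 and 50.7 in the control. Of the small heat shock proteins it lay furthest above the controls on the wild type replicate 2 array, and all 4 norflurazon arrays exceeded both control arrays. AT2G19310 had, on replicates 1 and 2, 1110 and 457 in gun1 gun5, 1482 and 309 in the wild type on norflurazon, and 355 and 350 in the control, so its wild type replicate 2 array was the lowest of the 6. AT4G21870 differed by 0.30 in mutant and 0.66 in wild type seedlings on norflurazon, under 2-fold in both. AT5G47600 was dim, with signals of 8.8 to 17.9, and was not tested.

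**Figure D1:**
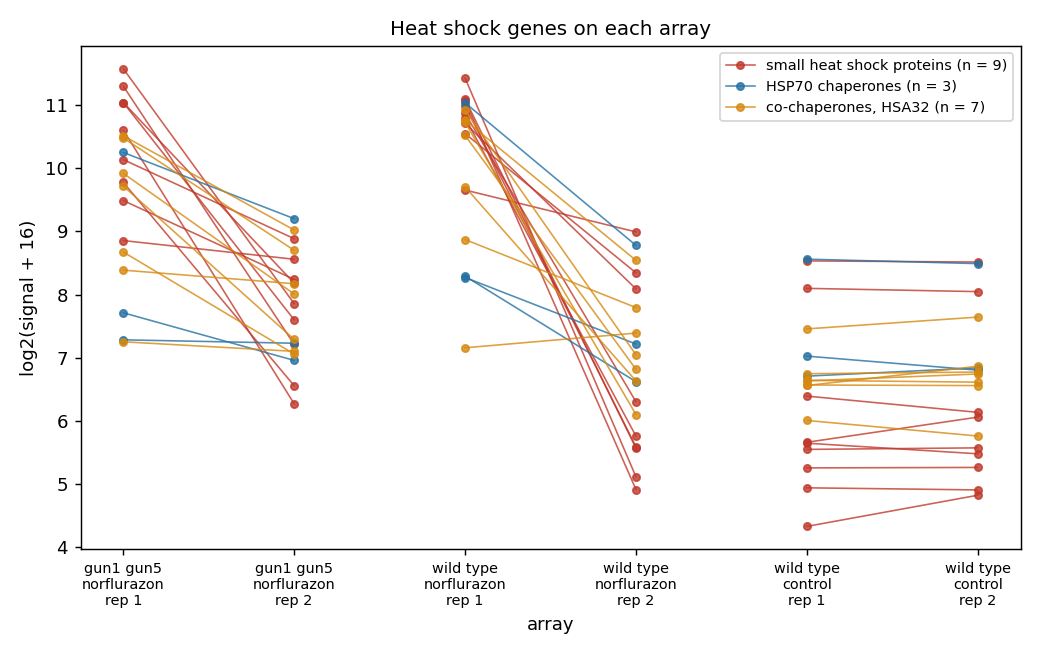
Log2(signal + 16) of the 19 tested heat shock probe sets on each of the 6 arrays. Each line joins replicate 1 and replicate 2 of 1 probe set within a group, coloured by gene list. On norflurazon most lines drop from replicate 1 to replicate 2, with a median difference of 1.61 in mutant and 3.07 in wild type seedlings, and in the control they are nearly level, with a median of 0.01.

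Among the large chaperones, 28 loci were listed, 4 had a named probe set and 3 were tested, with a median difference of 0.75 in the mutant, 1.67 in the wild type on norflurazon and 0.07 in the control. AT3G09440, a cytosolic HSP70, had signals on replicates 1 and 2 of 1202 and 573 in gun1 gun5, 2084 and 423 in the wild type on norflurazon, and 362 and 344 in the control. Cytosolic HSP70 genes are nearly identical in sequence, so part of this signal may come from other family members. Hsp70-2 had, on replicates 1 and 2, 140 and 134 in gun1 gun5, 297 and 82.4 in the wild type on norflurazon, and 88.6 and 98.5 in the control, so its wild type replicate 1 array was the highest of the 6. AT1G11660, an HSP110-type relative, differed by 0.75 in mutant and 1.05 in wild type seedlings. CLPB2 had signals of 0.8 to 1.6 and was not tested. Chaperonin genes found by annotation, outside this list, did not all follow. Cpn60beta2 differed by 0.70 in mutant and 1.47 in wild type seedlings on norflurazon, Cpn60beta3 by 0.59 and 0.03, and Cpn60beta4 by 0.05 and -0.25.

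Of 17 listed co-chaperones and other heat-induced genes, 7 were tested, and 5 of these were at least 2-fold higher on replicate 1 in both genotypes, beside the 0.659% of all tested probe sets. Nothing is read from this count either, since the contrast chose these genes. Hop3 (AT4G12400), which links HSP70 to HSP90, had signals on replicates 1 and 2 of 827 and 140 in gun1 gun5, 1678 and 52.6 in the wild type on norflurazon, and 48.3 and 38.2 in the control. AT5G48570, the prolyl isomerase ROF2, had, on replicates 1 and 2, 1412 and 400.2 in gun1 gun5, 1916 and 116 in the wild type on norflurazon, and 91.4 and 93.4 in the control. Both genes were several times the control on the mutant replicate 2 array and close to it on the wild type one. AT2G20560, a J-domain partner of HSP70, differed by 1.91 in mutant and 3.70 in wild type seedlings, and HSA32, which prolongs acquired heat tolerance, by 1.61 and 3.07.

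Other members of this list showed smaller gaps. Fes1A (AT3G09350), a nucleotide exchange factor of HSP70, had signals on replicates 1 and 2 of 1446 and 504 in gun1 gun5, 1720 and 357 in the wild type on norflurazon, and 78.4 and 100.6 in the control. All 4 norflurazon arrays were far above both controls. Hop2 differed by 0.22 in mutant and 1.08 in wild type seedlings. Hop1 was the only one of the 19 heat shock probe sets not higher on replicate 1 in both genotypes, with signals on replicates 1 and 2 of 137 and 121 in gun1 gun5, 127 and 152 in the wild type on norflurazon, and 83.3 and 91.1 in the control. The list of 24 heat shock and DREB2 transcription factors had no named probe set, so the factors themselves are not described here.

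Of the 19 heat shock probe sets, 18 had a larger difference in the wild type than in the mutant, beside 43.6% of all tested probe sets. The same held for 80 of the 90 probe sets at least 2-fold higher on replicate 1 in both genotypes, some of them heat shock genes. On replicate 1 the mutant lay above the wild type for 5 of the 19 (49.9% of all tested probe sets), with a median difference of mutant minus wild type of -0.48. On replicate 2 the mutant lay above for 16 (43.3% of all), with a median of 0.61. Set against control replicate 2, 11 of the 19 were at least 2-fold higher on the mutant replicate 2 array, beside 3.63% of all tested probe sets, and 2 were on the wild type replicate 2 array, beside 3.41%. Those 2 were AT5G51440 and Fes1A. With 1 array per genotype and replicate number, these differences between genotypes were not tested.

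The comparisons of mutant with wild type and of norflurazon with control set group means against each other, not replicate numbers, although the spread in their tests is made of the differences between replicates. Both were fitted with limma over all 6 arrays with Benjamini-Hochberg adjustment over the 13648 probe sets. Between the mutant and the wild type on norflurazon, none of the 19 heat shock probe sets passed the threshold of 0.05 and 1 had an unadjusted p below it, beside 1.75% of all tested probe sets called higher and 1.08% called lower. The median difference of mutant minus wild type was 0.06 over the 19 and -0.03 over all. AT1G53540, for one, differed by 1.44 ± 1.85 (SE, n = 2 arrays each; limma adjusted p = 0.792). Genes with a wide replicate gap have a wide spread in this fit by construction, so the p that misses the threshold does not show equal levels. The direction depended on the arrays: the median was 1.23 without wild type replicate 1 and -1.33 without wild type replicate 2. It was -0.69 without mutant replicate 1 and 0.86 without mutant replicate 2. Without wild type replicate 2, Hsp70-2 and AT4G21870 passed as lower in the mutant.

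Between norflurazon and control in the wild type, 4 of the 19 rose and none fell, beside 9.01% of all tested probe sets called higher and 10.3% called lower. AT5G51440 was higher by 3.54 ± 0.75 (SE, n = 2 arrays each; limma adjusted p = 0.016). Fes1A was higher by 2.94 (adjusted p = 0.0233), AT4G21870 by 1.25 (adjusted p = 0.00984) and Hop1 by 0.59 (adjusted p = 0.0464), all from the same limma fit. These 4 were high on both norflurazon arrays of the wild type. The median over the 19 was 2.22, against 0.05 over all tested probe sets. Without wild type norflurazon replicate 2, 18 of the 19 passed and the median was 4.05. Without wild type norflurazon replicate 1, 4 passed and the median was 0.24. None passed when either control array was left out, which leaves a lone control whose spread is assumed to be that of the other groups.

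Across all 13648 probe sets, 90 (0.659%) were at least 2-fold higher on replicate 1 in both genotypes and 3 (0.022%) were at least 2-fold lower. Within the mutant alone 119 (0.872%) were higher and 86 (0.63%) lower, and within the wild type on norflurazon alone 299 (2.19%) were higher and 91 (0.667%) lower. In the control pair 9 (0.0659%) were higher and 2 (0.0147%) lower. A limma fit paired within genotype put 170 (1.25%) higher and 45 (0.33%) lower; it was run on the contrast that had been chosen for its gap, so nothing is read from these counts. The standard deviation of the replicate difference was 0.383 in the mutant, 0.50 in the wild type on norflurazon and 0.215 in the control.

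Across probe sets, which are not independent replicates, the replicate difference in the mutant and that in the wild type correlated at r = 0.48 (Spearman rho = 0.36, 13648 probe sets). Without the 93 probe sets that were 2-fold apart in both genotypes, r was 0.29 over 13555. The mutant difference correlated with that of the control at r = 0.079, and the wild type norflurazon difference at r = 0.074. The pairs were of different groups and shared no array. What a replicate number shares across genotypes is not given in the labels.

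**Figure D2:**
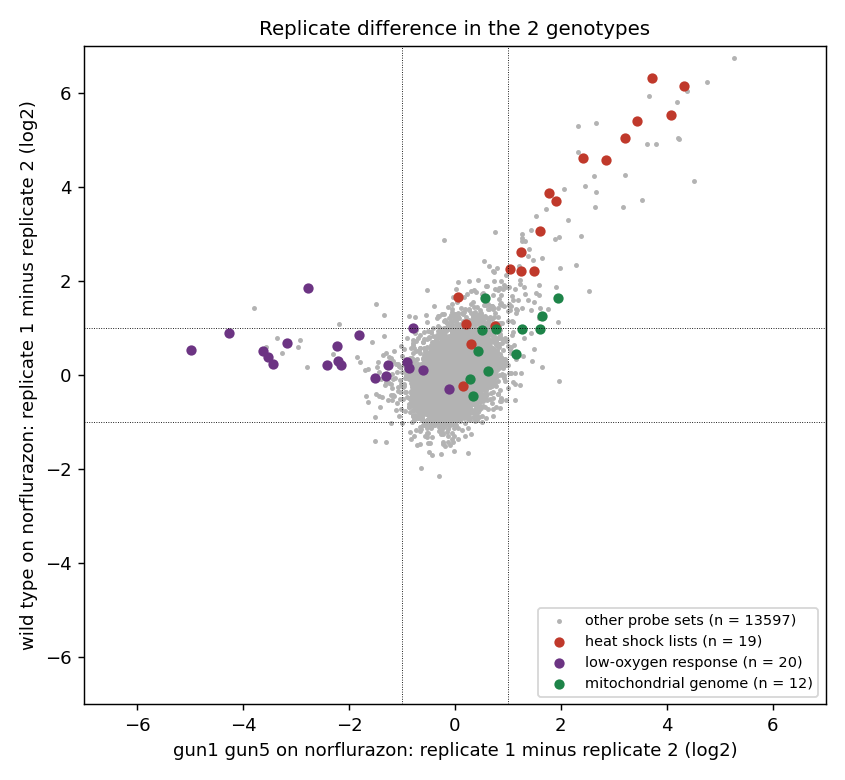
Difference of replicate 1 minus replicate 2 in log2(signal + 16) for the 13648 tested probe sets, with the gun1 gun5 mutant on the horizontal axis and the wild type on norflurazon on the vertical axis. Dotted lines mark a 2-fold difference, and probe sets of 3 gene lists are coloured. Heat shock probe sets lie in the upper right, mostly further out for the wild type, mitochondrial ones mostly nearer the corner at 2-fold, and low-oxygen genes to the left.

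Of these 90, a gene name was given to 42, more than 1 name to 4, and none here to 44. Their mean difference over both genotypes was 1.08 to 6.02, with a median of 1.61 in the mutant, 2.58 in the wild type on norflurazon and 0.01 in the control, and 80 had the larger difference in the wild type. Of the 90, 72 were within 2-fold of control replicate 2 on the wild type replicate 2 array (90.8% of all tested probe sets) and 53 were on the mutant one (90.3%). In both genotypes 31 differed at least 4-fold. Among the named members nearest to the 2-fold limit were AT1G19020 (1.01 in the mutant, 1.37 in the wild type) and AT1G04800 (1.03 and 1.50) just inside it. AT2G07741 (1.23 in the mutant, 0.997 in the wild type) and nad5 (1.27 and 0.99) lay just outside.

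The heat shock lists held 14 of the 42 named genes. On those 14, signals were 392.2 to 3036 (median 1307) on the mutant replicate 1 array and 61.1 to 573 (median 228) on the mutant replicate 2 array. In the wild type on norflurazon they were 819 to 2739 (median 1809) on replicate 1 and 14.1 to 423 (median 73.1) on replicate 2. In the control they were 4.1 to 362 (median 58.2) on replicate 1 and 12.3 to 350 (median 52.5) on replicate 2.

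The other 28 named genes held further parts of the protein quality control machinery. AT1G71000, a J-domain protein, had signals on replicates 1 and 2 of 631 and 12.3 in gun1 gun5, 448 and 10.5 in the wild type on norflurazon, and 5.3 and 2.8 in the control, so it was dim on 4 arrays and bright on the 2 replicate 1 norflurazon arrays. AT1G66080, a relative of the Hikeshi carrier that brings HSP70 into the nucleus in human cells, differed by 1.72 in mutant and 3.54 in wild type seedlings. AT3G12050, an Aha1-type activator of HSP90, differed by 1.08 in mutant and 1.69 in wild type seedlings. The RING-type ubiquitin ligases AT1G26800 and AT1G14200 differed by 1.25 and 1.43 in mutant and by 2.64 and 3.09 in wild type seedlings.

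Genes with other roles, or with none given here, were among the 28 as well. AT5G10695 had signals on replicates 1 and 2 of 655 and 92.4 in gun1 gun5, 1125 and 44.2 in the wild type on norflurazon, and 73.1 and 64.2 in the control. AT5G07330 had, on replicates 1 and 2, 136 and 0.8 in gun1 gun5, 196 and 1.9 in the wild type on norflurazon, and 24.2 and 27.1 in the control. Both replicate 2 norflurazon arrays lay far below the controls and both replicate 1 arrays lay above them. AT1G67360, a lipid droplet protein, differed by 1.26 in mutant and 2.84 in wild type seedlings. EXO (EXORDIUM), a cell wall protein of growing tissue, had, on replicates 1 and 2, 205 and 56.7 in gun1 gun5, 375 and 128 in the wild type on norflurazon, and 369 and 438 in the control. No norflurazon array exceeded both controls for EXO, and the replicate 2 arrays were the lowest within each genotype.

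Only 2 named genes were at least 2-fold lower on replicate 1 in both genotypes. AT2G15880, a leucine-rich repeat extensin of the cell wall, had signals on replicates 1 and 2 of 71.7 and 235 in gun1 gun5, 37.2 and 124 in the wild type on norflurazon, and 53 and 80.8 in the control. AT4G00750, a putative methyltransferase, had, on replicates 1 and 2, 33 and 104 in gun1 gun5, 19.6 and 79.9 in the wild type on norflurazon, and 78.8 and 91.8 in the control. AT4G00750 was near control level on the replicate 2 norflurazon arrays and below it on the replicate 1 arrays.

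Transcripts of the mitochondrial genome were also higher on replicate 1. The 12 tested mitochondrial probe sets cover 8 genes, with 4 probe sets for nad1 and 2 for nad5, so they are not independent of each other. All 12 were higher on replicate 1 in the mutant, beside 48.7% of all tested probe sets, and 10 were in the wild type on norflurazon, beside 42.8%, with medians of 0.70, 0.97 and -0.05 in the mutant, the wild type and the control. Of the 12, 2 were at least 2-fold higher in both genotypes, beside 0.659% of all. The first, nad6, encodes a subunit of respiratory complex I and had signals on replicates 1 and 2 of 511 and 121 in gun1 gun5, 130 and 30.7 in the wild type on norflurazon, and 34 and 31.2 in the control. The second, nad4L, also of complex I, had, on replicates 1 and 2, 194 and 51.3 in gun1 gun5, 107 and 35.2 in the wild type on norflurazon, and 35.8 and 40.9 in the control. Both were higher in the mutant than in the wild type on each replicate number. Within the list, cox2 of cytochrome oxidase differed by 0.56 in mutant and 1.63 in wild type seedlings, cox1 by 1.15 and 0.45, and nad4 by 0.34 and -0.45. Between norflurazon and control in the wild type, nad4 was the 1 of the 12 that rose, by 1.09 (limma adjusted p = 0.012), beside the 9.01% of all probe sets called higher. The nucleus of Arabidopsis carries a large copy of mitochondrial DNA, whose transcripts these probe sets could also detect.

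Transcripts of the plastid genome showed no shared 2-fold difference among 62 tested probe sets. Their medians were -0.19 in the mutant, 0.10 in the wild type on norflurazon and 0.19 in the control, and 6 were at least 2-fold higher on replicate 1 in the wild type, beside 2.19% of all tested probe sets. Between norflurazon and control in the wild type, 51 of the 62 fell in the limma fit, beside the 10.3% of all probe sets called lower. The psbH transcript of photosystem II had signals on replicates 1 and 2 of 186 and 89.7 in gun1 gun5, 440 and 105 in the wild type on norflurazon, and 1241 and 969 in the control. For atpF of the ATP synthase the differences were 0.87 in the mutant, 1.54 in the wild type and 0.37 in the control. Nuclear photosynthesis genes, which also mark green cotyledon tissue, had medians of 0.19 in the mutant, 0.02 in the wild type on norflurazon and 0.14 in the control over 10 tested members of 47 listed. All 10 were bright in the control, at 469 to 3612. In the limma fit all 10 fell between norflurazon and control in the wild type, beside the 10.3% of all called lower. Between mutant and wild type on norflurazon 8 were higher, beside 1.75% of all. Since these genes changed with treatment and genotype, they cannot serve here as a measure of tissue amount. LHCB4.2, a light-harvesting protein, differed most in both genotypes, by 0.54 in the mutant, 1.17 in the wild type on norflurazon and 0.21 in the control.

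**Figure D3:**
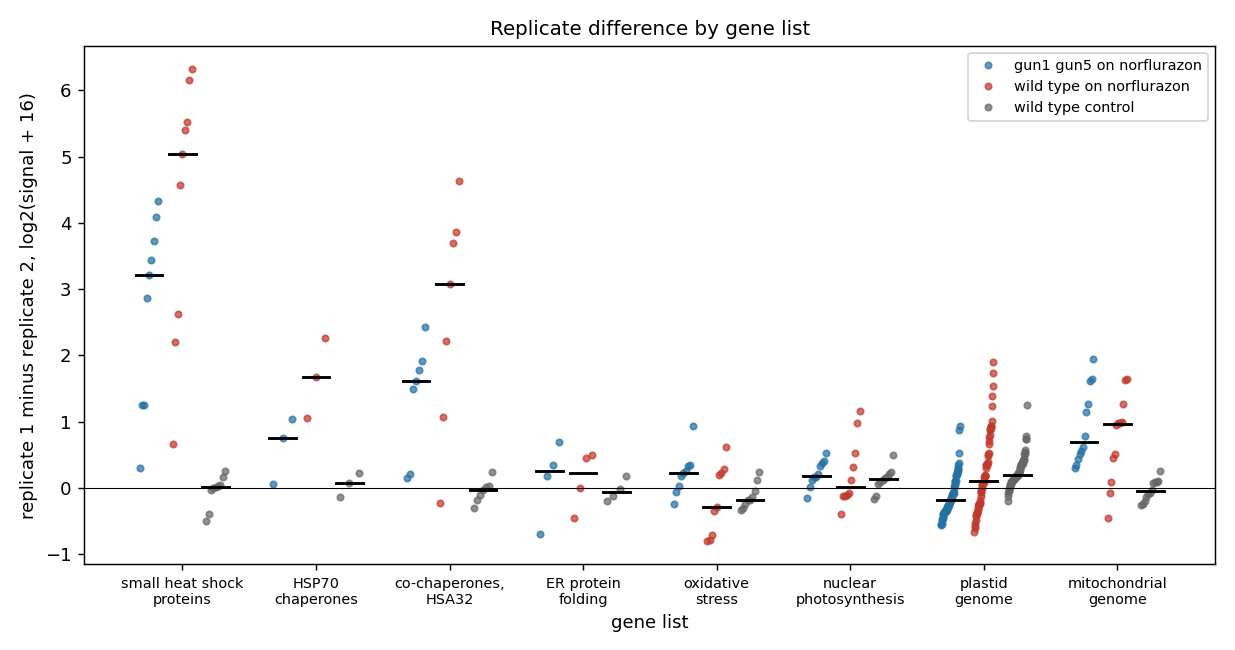
Difference of replicate 1 minus replicate 2 in log2(signal + 16) for the tested members of 8 gene lists, in the gun1 gun5 mutant on norflurazon, the wild type on norflurazon and the wild type control. Each point is 1 probe set and each black bar a median. The 3 heat shock lists lie highest, with medians up to 5.04, the mitochondrial list has medians of 0.70 in mutant and 0.97 in wild type seedlings on norflurazon, and the medians of the other 4 lists lie between -0.28 and 0.26.

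Stress lists outside heat shock differed less between the replicates. The 4 tested genes of protein folding in the endoplasmic reticulum had medians of 0.26 in the mutant, 0.22 in the wild type on norflurazon and -0.07 in the control, with ATERDJ3B at 0.69 in mutant and 0.51 in wild type seedlings and BZIP60, a transcription factor of the unfolded protein response, at -0.69 and -0.46. The 9 oxidative stress and mitochondrial dysfunction genes had medians of 0.23, -0.28 and -0.18 in those groups. Among them AT2G21640 differed by 0.94 in mutant and 0.23 in wild type seedlings on norflurazon, and AT2G04050 by 0.19 and -0.80 in mutant and wild type. Defence genes, with 4 tested, had medians of 0.30, -0.70 and -0.23 in those groups. In the cold and dehydration list COR47 differed by 0.55 in mutant and 1.00 in wild type seedlings, and DI21 by -0.63 and -0.26. The clock gene GI differed by -0.57 in mutant and -0.01 in wild type seedlings, and ORA47 of the jasmonate list by 0.19 and 0.07. No member of these lists was 2-fold apart in both genotypes.

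Markers of other tissues were few. Of 15 root loci 2 were measured, the root hair expansins EXPA7 and EXPA18. EXPA7 had signals on replicates 1 and 2 of 51.4 and 49.5 in gun1 gun5, 48.9 and 18.1 in the wild type on norflurazon, and 46.7 and 56.1 in the control. EXPA18 had, on replicates 1 and 2, 63.9 and 44.6 in gun1 gun5, 64.1 and 40.8 in the wild type on norflurazon, and 74.3 and 73 in the control. The wild type replicate 2 array was the lowest for both. Of 12 seed and oil body loci 2 were measured, OLEO3 and AT3G01570, at signals of 14.1 to 28.7, and neither passed the intensity filter. Their part in the replicate gap was not tested.

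Control probe sets of the arrays differed between the replicates too. The 25S ribosomal RNA probe set gave, on replicates 1 and 2, 116 and 21 in gun1 gun5, 2511 and 8.2 in the wild type on norflurazon, and 15.2 and 11.1 in the control. Both replicate 1 norflurazon arrays were above the other 4, the wild type one by far the most. The ratio of the 3′ to the 5′ actin probe set, which increases as RNA is degraded, was on replicates 1 and 2, in turn, 2.00 and 3.21 in gun1 gun5, 1.65 and 3.63 in the wild type on norflurazon, and 2.46 and 2.78 in the control. It was therefore lowest on the arrays with high heat shock signal. The same ratio for GAPDH was instead lowest on the control arrays, at 1.00 and 0.952 on replicates 1 and 2. On norflurazon the GAPDH ratio was, on replicates 1 and 2, 1.13 and 1.21 in gun1 gun5 and 1.02 and 1.17 in the wild type. The part of ribosomal RNA or RNA quality in the replicate gap was not tested.

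A second pattern appeared in the mutant pair. Of the 86 probe sets at least 2-fold lower on mutant replicate 1, 74 (0.542% of those tested) were less than 0.5 lower on the log2 scale, or higher, on replicate 1 in the wild type. By size, the first 10 named ones were led by genes known to respond to low oxygen. A list of 43 low-oxygen loci was then written with these values in view, so its counts describe what was seen. It had 20 tested members with medians of -2.18 in the mutant, 0.29 in the wild type on norflurazon and -0.01 in the control. Of the 20, 15 were at least 2-fold lower on mutant replicate 1, beside 0.63% of all tested probe sets, and none were in the wild type, beside 0.667%. The mutant replicate 2 array was the highest of the 6 for 19, all but AT3G23170, an order that 14.3% of all tested probe sets had.

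AT3G29970, a B12D-family protein, had signals on replicates 1 and 2 of 16.2 and 1004 in gun1 gun5, 73.8 and 45.9 in the wild type on norflurazon, and 20.1 and 31.3 in the control. AT2G17850, a rhodanese-like protein, had, on replicates 1 and 2, 36.1 and 991 in gun1 gun5, 84 and 38 in the wild type on norflurazon, and 64.3 and 66.6 in the control. In both, 1 array of the 6 stood apart, mutant replicate 2. CML38, a calmodulin-like protein, had, on replicates 1 and 2, 11.6 and 131 in gun1 gun5, 26 and 20 in the wild type on norflurazon, and 36.6 and 56.7 in the control. PDC2, a pyruvate decarboxylase of ethanol fermentation, had, on replicates 1 and 2, 300.1 and 572 in gun1 gun5, 410.2 and 334 in the wild type on norflurazon, and 220.3 and 224 in the control, so its gap was under 2-fold. AT1G33055 had, on replicates 1 and 2, 163 and 1587 in gun1 gun5, 465 and 282 in the wild type on norflurazon, and 73.1 and 73.2 in the control, with all 4 norflurazon arrays above both controls. Among the 4 members that were too dim to test, AT3G10040 had 10.9 on mutant replicate 1, 69.3 on mutant replicate 2 and at most 14.7 on the other 4 arrays.

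**Figure D4:**
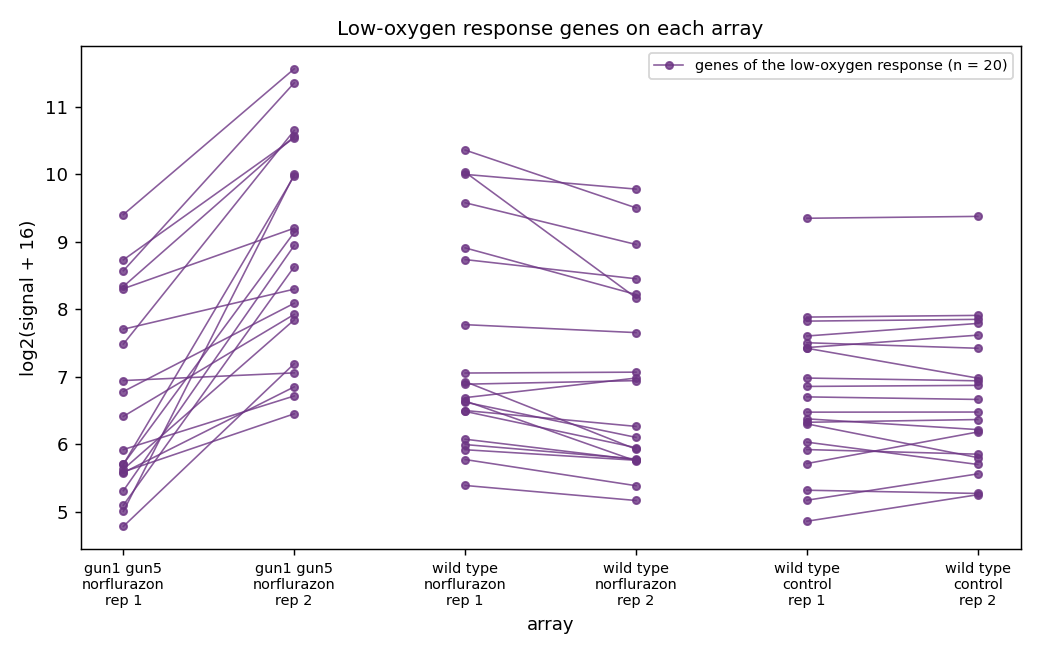
Log2(signal + 16) of the 20 tested genes of the low-oxygen list on each of the 6 arrays, with a line joining replicate 1 and replicate 2 of each probe set within a group. Mutant replicate 2 is the highest array for 19 of the 20, and lines in the control are nearly level, with a median difference of -0.01.

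Other genes differed between the replicates in 1 genotype, and 5 probe sets (0.0366%) were 2-fold apart in opposite directions in the 2 genotypes. Of the 8 named genes at least 2-fold higher on replicate 1 in the mutant and less than 0.5 higher (log2) in the wild type, the widest gap was that of EXLA1, an expansin-like protein with signals on replicates 1 and 2 of 149 and 26.1 in gun1 gun5, 86.7 and 96.6 in the wild type on norflurazon, and 85.7 and 103 in the control. XTH19, an enzyme that remodels xyloglucan, had, on replicates 1 and 2, 237 and 65.1 in gun1 gun5, 521 and 461 in the wild type on norflurazon, and 532 and 675 in the control. For both genes the mutant replicate 2 array was the lowest of the 6. In the wild type, HIS1-3, a linker histone induced by drought, had 56.6 on replicate 1 and 205 on replicate 2 of the norflurazon arrays, where the mutant had 235 and 238 and the control 381 and 360.3 on replicates 1 and 2. AT3G14200, a J-domain protein, had, on replicates 1 and 2, 80.9 and 96.1 in gun1 gun5, 227 and 17.2 in the wild type on norflurazon, and 26.8 and 34.9 in the control.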

How the data were processed

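Total RNA of 6 samples was hybridised to 1-colour ATH1 arrays. The authors made the deposited intensity values with MAS5 (submitters' processing notes, which give no version); detection calls and probe-level files are not used here. Trimmed means of 99.6 to 99.9 on every array are near a target of 100. No 2 arrays shared more than 273 equal signals, so none was a repeat deposit. Precision is limited by the 2 arrays per group.

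Of 22810 probe sets, 64 control ones were left out. Intensities were taken as log2(signal + 16), and 13648 probe sets with a mean at or above the 40th percentile (a signal of 28.2) were tested. Names came from the platform annotation, updated through RefSeq TAIR10.1: 1 gene was named for 13513 probe sets, more than 1 for 503 and none here for 8794. Models were fitted with limma 3.58.1 in R 4.3.3 (lmFit, eBayes with trend, two-sided, Benjamini-Hochberg at 0.05). One used 3 group means over all 6 arrays (3 residual and 4.88 prior degrees of freedom). The other added a replicate term for the norflurazon arrays (2 residual and 6.56 prior). Fits were tested on simulated data with the same normal noise on every probe set and array. The measured pairs differed in spread, so that test says little about calls in these data. Alternatives changed the pseudocount, filter, scaling, fold, arrays and replicate block.

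The arrays, gene lists and named genes were chosen with earlier results of these data known, and the low-oxygen list with its values in view. Named genes were the 10 widest replicate gaps per direction that were 2-fold in both genotypes and under 2-fold in the control, and every measured heat shock gene. The 2 widest of each other list were picked as well, but not all of those are described. Other genes were named from these values because they describe a group. Sequences are not printed here.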

Additional observations from a re-analysis of the deposited data

Results flagged for a closer look

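The 25S ribosomal RNA probe set, 1 of the array's control probe sets, lies outside the gene measurements and was brighter than on the control arrays (15.2 and 11.1) on both replicate 1 norflurazon arrays. Its signal was 115.6 on the mutant array and 2511.1 on the wild type array, against 21 and 8.2 on the replicate 2 arrays of the mutant and the wild type.

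In 5 probe sets (0.0366% of those tested) the replicate difference was 2-fold or more in opposite directions in mutant and wild type seedlings on norflurazon. Of these 3 named a gene, and this difference between genotypes was not tested. GH3.3, an enzyme that conjugates auxin, differed by -2.19 in mutant and 1.10 in wild type seedlings. AT3G03270, a universal stress protein of the low-oxygen list, differed by -2.78 in mutant and 1.86 in wild type seedlings, with signals of 364 and 2595 in gun1 gun5, 1029 and 272 in the wild type on norflurazon, and 211 and 215 in the control. AT1G73120 differed by -1.49 in mutant and 1.51 in wild type seedlings, and its control signals of 313 and 437 exceeded those of all 4 norflurazon arrays.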

How the results depend on the processing

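The heat shock median over both genotypes was 2.34, and 1.96 to 2.51 under 2 other pseudocounts, 2 other filters and 2 other scalings; it was 1.61 in the mutant pair alone and 3.07 in the wild type pair alone. No called result changed direction; the heat shock median for mutant against wild type, which was not called, was -0.06 with a pseudocount of 64. Probe sets 2-fold lower on replicate 1 in both genotypes numbered 9 with a pseudocount of 1 and 0 with 64. At 1.5-fold 228 were higher and 91 lower, and at 4-fold 31 and 0. With 1 genotype alone, 119 to 299 were higher and 86 to 91 lower. Counts of the paired fit, from which nothing is read, were 25 higher and 0 lower with no filter, 30 and 0 after subtraction of the control pair's difference, 37 and 0 without a term for genotype, and 11 lower on the 4 norflurazon arrays alone. Leaving out 1 array gave 252 to 983 higher and 235 to 1065 lower, where 1 pair remains and the spread comes from the control pair by construction. Mutant against wild type called 77 higher and 43 lower with no filter, and 57 to 390 higher and 11 to 373 lower without 1 array. Norflurazon against control called 123 to 1557 higher and 498 to 1639 lower without 1 array. With no filter, 1 heat shock gene rose there in place of 4, AT4G21870.

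Same-numbered samples did not deviate together in every pair of groups: r was 0.48 between mutant and wild type on norflurazon, 0.079 between mutant and control and 0.074 between wild type and control. A replicate block called 328 higher and 216 lower for mutant against wild type, in place of 239 and 147, and 1599 higher and 1617 lower for norflurazon against control, in place of 1230 and 1400. With the block 6 of the 19 heat shock probe sets passed for norflurazon against control, AT3G09440 and AT1G11660 being added, and 0 for mutant against wild type.

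With 2 arrays per group, 1 array can decide a value. The annotation named 21 probe sets for 87 heat shock loci, and 44 of the 90 shared probe sets are unnamed here. Dim genes depend on the pseudocount: AT1G71000 had a mean difference of 5.43 with a pseudocount of 1 and 2.98 with 64, and AT5G07330 of 6.17 and 1.80.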
